A study of Mus musculus with 8 samples.

Results

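Interleukin-10 (IL-10) and the IL-12 family are the cytokines by which macrophages restrain or direct an immune response. The 10 genes described here are Il10, its receptor genes Il10ra and Il10rb, the IL-12 family subunit genes Il12a, Il12b, Il23a, Il27 and Ebi3, and the receptor genes Il12rb1 and Il27ra. They were taken by symbol from the 53735 genes of the 2 deposited count tables, and all 10 were present. RNA was measured in bone marrow derived macrophages (BMDMs), which are bone marrow cells grown into macrophages in culture for 7 days, from male mice 6 months old. The WT mice were Mkl1+/+, Apoe-/- and the KO mice Mkl1-/-, Apoe-/-, so both genotypes lacked apolipoprotein E. All had been infused with angiotensin II (Ang II) for 7 days by osmotic minipump, at 1.44 mg/kg/day by one of 2 dose statements in the labels that do not match, before the marrow was taken. No animals without Ang II were analysed here. MKL1 is a coactivator of serum response factor, and the deletion was not limited to macrophages. There were 2 experiments, each with 2 WT and 2 KO libraries (WT libraries 1 and 2 and KO libraries 5 and 6 in experiment 1, WT libraries 3 and 4 and KO libraries 7 and 8 in experiment 2). The comparison asked what loss of Mkl1 changed in these macrophages, and was made within each experiment.

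IL-10 is a homodimer that signals through a ligand-binding chain, IL-10Rα (Il10ra), and a shared chain, IL-10Rβ (Il10rb), to STAT3, and it lowers cytokine production by macrophages themselves. The IL-12 family cytokines are heterodimers of an α chain and a β chain. The p35 chain (Il12a) and the p19 chain (Il23a) each join p40 (Il12b), giving IL-12 and IL-23, while p28 (Il27) joins EBI3 (Ebi3), giving IL-27. The receptor chain encoded by Il12rb1 binds p40, and that encoded by Il27ra binds IL-27 together with gp130. In macrophages p40 and p28 are known as genes that are nearly silent at rest and rise with microbial or interferon signals.

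Sequences before the transcription start are shown for Ebi3 and Il12b. They were chosen since Ebi3 fell in KO of experiment 1 and Il12b had at most 11 counts in each library outside WT of experiment 2. RefSeq windows on GRCm38.p6 were at hand for 3 of the 10 genes, the third being Il12a. Each stretch below is the 250 bases before the start, on the plus strand, chr17:55952373-55952622 for Ebi3 and chr11:44399813-44400062 for Il12b, and capitals mark a match to the NF-κB consensus.
Ebi3: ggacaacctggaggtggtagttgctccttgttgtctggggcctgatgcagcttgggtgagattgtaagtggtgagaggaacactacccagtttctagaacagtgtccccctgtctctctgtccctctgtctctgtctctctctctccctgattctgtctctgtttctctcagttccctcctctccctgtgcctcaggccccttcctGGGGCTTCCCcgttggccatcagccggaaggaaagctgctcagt
Il12b: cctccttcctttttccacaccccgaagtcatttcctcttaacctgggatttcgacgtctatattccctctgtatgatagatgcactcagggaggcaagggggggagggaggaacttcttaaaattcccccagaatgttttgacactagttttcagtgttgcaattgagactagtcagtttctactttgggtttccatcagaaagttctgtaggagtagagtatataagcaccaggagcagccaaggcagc
Both strands were searched for the NF-κB and CArG consensus (the latter the site of serum response factor), the ISRE core (an interferon response element), the AP-1 site TGANTCA, the STAT site TTCNNNGAA and the C/EBP site TTNNGNAA. The Ebi3 window held 1 NF-κB match, from position -44 to -35 before the start, and no other match. None of the 6 motifs had a match in the Il12b window or in the 2 windows of Il12a. NF-κB matches occurred in 3.90% of all 32851 windows of this length, CArG in 1.47%, the ISRE core in 2.98%, AP-1 in 6.75%, STAT in 7.02% and C/EBP in 36.8%. A match is a description of letters only.

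Each library held between 33977799 and 41584540 counts. Mkl1, the targeted gene, had 25.6 and 27.1 CPM (counts scaled to a common library size) in WT and 19.5 and 20.9 CPM in KO of experiment 1, and 26.8 and 29.6 CPM in WT and 14.6 and 10.4 CPM in KO of experiment 2, so reads on it were fewer in every KO library but not absent. The cultures carried macrophage markers throughout, with 10 of 10 present and a summed level between 17098 and 37010 CPM. Single markers differed between genotypes, with 3 lower and 6 higher in KO of experiment 1 and 2 lower and 2 higher in KO of experiment 2. Of all genes tested, 55.1% passed an adjusted p of 0.05 in edgeR's test in experiment 1 and 15.8% in experiment 2. Adgre1, which encodes F4/80, had 8328 and 7102 CPM in WT and 1929 and 1669 CPM in KO of experiment 1, and 2678 and 2720 CPM in WT and 4875 and 5264 CPM in KO of experiment 2. Csf1r, the receptor of the macrophage growth factor CSF1, moved the other way, with log2 fold changes of 0.82 and -1.28. The KO libraries of experiment 1 stood apart by the sum of 8 fibroblast markers, between 163 and 216 CPM there and between 1.68 and 11.1 CPM in the other libraries. This sum was mainly Col1a2, Col3a1, Pdgfra and Col1a1, while Lum and Thy1 had at most 4 counts in any library. Markers of dendritic cells summed to between 32.5 and 47.8 CPM in WT of experiment 2 and between 20.1 and 30.0 CPM in KO of experiment 1, against 1.70 to 4.06 CPM in the other libraries. In T and NK cell and B cell lists the sums were at most 3.11 and 5.61 CPM, in the neutrophil list they were lower still, and Cd3e was at 0 in every library. The dendritic cell sum was mainly Itgax, which macrophages also express, while Flt3 had at most 1 count in every library. The part of these cells and markers in the results below was not tested, and in such bulk RNA fewer cells of a type and less RNA per cell cannot be told apart.

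In experiment 1 the KO macrophages had less Il10 and Ebi3, more Il12rb1, and slightly more Il10ra and Il10rb. In experiment 2 they had less Il27, Il27ra and Il10ra, and Il12b had 558 and 194 counts in the WT libraries against 1 and 0 in the KO libraries. Of the 10 genes, 7 had enough reads to be tested, and the counts of calls below are over those 7. In experiment 1, adjusted p was under 0.05 for 5 of the 7, with 2 lower and 3 higher in KO. Of all 14418 genes tested, 55.1% passed there, 28.1% lower and 27.0% higher. In experiment 2, 3 of the 7 were lower and none higher, where 15.8% of all genes passed, 8.29% lower and 7.52% higher. The split of the calls over all genes in experiment 1 depended on the scaling, with 49.0% of them higher in KO by TMM and 59.8% by upper-quartile scaling. For the 7 genes the median change (log2 of KO over WT) was 0.21 in experiment 1 and -0.88 in experiment 2, beside 0.01 for all genes in both. The tests were edgeR's quasi-likelihood F tests with Benjamini-Hochberg adjustment over all genes. Nothing in the labels ties each library to 1 mouse, so the p-values measure the spread between these libraries.

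**Figure D1:**
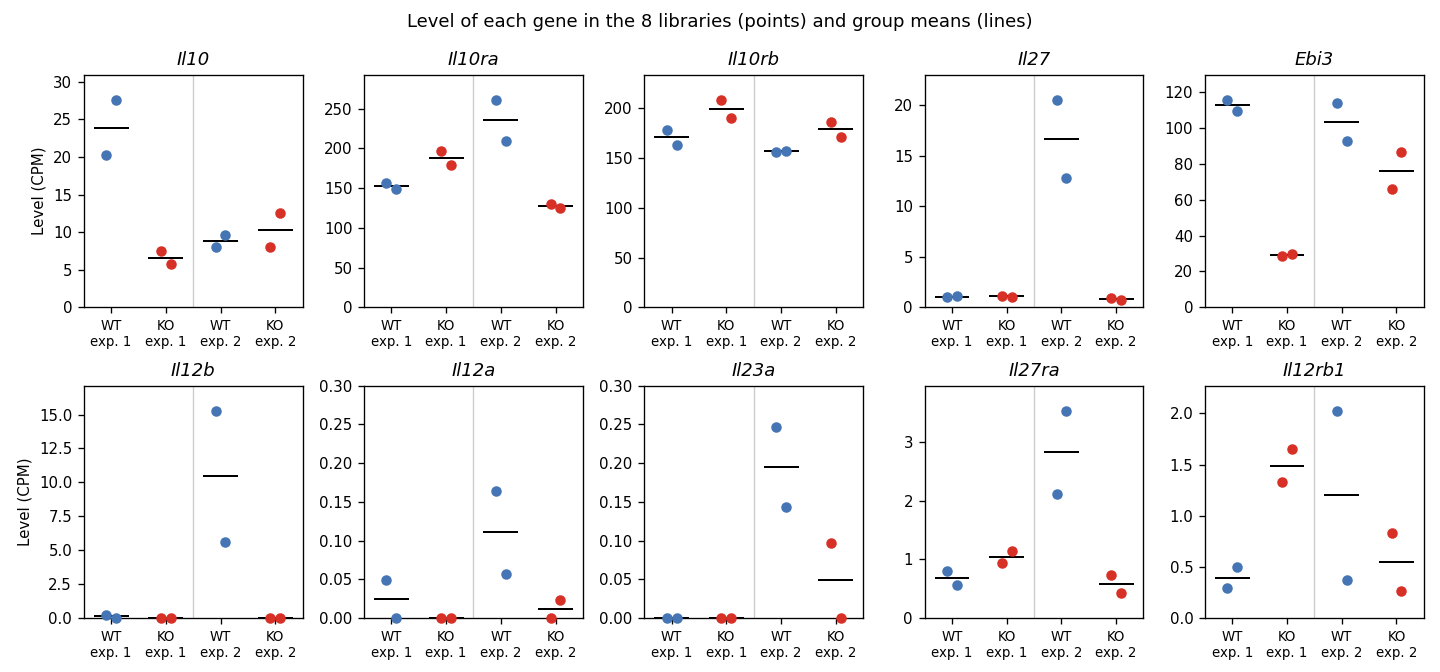
Level of each of the 10 genes in CPM (vertical axes, each from 0) in the WT (blue) and KO (red) libraries of experiments 1 and 2, with a point for each library and a line for the mean of 2. Il10 stands highest in WT of experiment 1, with 20.2 and 27.6 CPM, and Il27 and Il12b in WT of experiment 2, while Ebi3 is lowest in KO of experiment 1.

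Il10 on chromosome 1 (131019845 to 131024974, plus strand, 5 exons) had 822 and 941 counts in WT and 276 and 232 counts in KO of experiment 1. This was 20.2 and 27.6 CPM in WT and 7.47 and 5.80 CPM in KO, and the groups did not overlap. The log2 fold change was -1.86 (standard error, SE, 0.20), a 3.63-fold decrease, with an adjusted p of 0.000580 in edgeR's test. In experiment 2, WT libraries 3 and 4 had 8.09 and 9.63 CPM and KO libraries 7 and 8 had 8.03 and 12.5 CPM. These ranges overlapped, and the log2 fold change was 0.21 (SE 0.25, adjusted p = 0.593 in edgeR's test). The 4 groups thus ranked as WT of experiment 1 (23.9 ± 5.23 CPM, SD, n = 2), KO of experiment 2 (10.3 ± 3.18 CPM), WT of experiment 2 (8.86 ± 1.09 CPM) and KO of experiment 1 (6.63 ± 1.18 CPM). KO and WT of experiment 2 were not apart beyond their spread, while both libraries of WT of experiment 1 lay above all the others. The log2 fold change of experiment 2 minus that of experiment 1 was 2.06 (SE 0.36, adjusted p = 0.00392 in the interaction test of edgeR). The larger change was the decrease of experiment 1. Of the 7 genes, 5 passed this test, 3 with a lower and 2 with a higher value in experiment 2. It was passed by 41.6% of all genes, 20.6% lower and 21.0% higher.

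The receptor of IL-10 was abundant in every library. Il10ra lies on chromosome 9 (45253837 to 45269149, minus strand, 7 exons) and Il10rb on chromosome 16 (91406164 to 91425834, plus strand, 8 exons). Il10ra had 156 and 149 CPM in WT and 196 and 180 CPM in KO of experiment 1, an increase of 0.29 on the log2 scale (SE 0.07, adjusted p = 0.00624 in edgeR's test). In experiment 2 it had 261 and 209 CPM in WT and 131 and 124 CPM in KO, and its log2 fold change was -0.88 (SE 0.15, adjusted p = 0.0229 in edgeR's test). Il10ra therefore moved in opposite directions, and the interaction was -1.18 (SE 0.16, adjusted p = 0.00162 in edgeR's test). The call of experiment 1 was lost in a fit of the 4 groups over all 8 libraries (adjusted p = 0.0727 in edgeR's test), and that of experiment 2 without WT library 3, KO library 7 or KO library 8. Il10rb, the chain shared with other cytokines, was the steadiest of the 10 genes, with between 156 and 209 CPM in all libraries. Its log2 fold change was 0.21 (SE 0.07, adjusted p = 0.0368) in experiment 1 and 0.19 (SE 0.11, adjusted p = 0.301) in experiment 2, both by edgeR's test. The call of experiment 1 did not hold in 5 of 11 alternative fits, among them DESeq2 (adjusted p = 0.0515). GENCODE places a second gene model, Gm21970, on the same strand with 569 exon bases in common with Il10rb, but no row of the count tables carries that name. Per length, the ratio of Il10ra to Il10rb was between 0.953 and 1.03 in all libraries of experiment 1, 1.82 and 1.45 in WT of experiment 2, and 0.762 and 0.791 in KO of experiment 2.

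The subunits of IL-27 did not change together. Il27, which encodes p28, lies on chromosome 7 (126589010 to 126594941, minus strand, 5 exons). It had 750 and 447 counts in WT of experiment 2, and between 31 and 42 counts in each of the other 6 libraries. In CPM, WT of experiment 2 had 20.6 and 12.9 and KO of experiment 2 had 0.903 and 0.743. The log2 fold change was -4.34 (SE 0.32), a 20.2-fold decrease, with an adjusted p of 0.00534 in edgeR's test, or 0.0537 without KO library 8. In experiment 1, WT had 1.01 and 1.14 CPM and KO 1.14 and 1.02 CPM, and the log2 fold change was -0.00 (SE 0.25, adjusted p = 0.992 in edgeR's test). The interaction was -4.35 (SE 0.40, adjusted p = 0.000412 in edgeR's test). Exons of Il27 share 103 bases with Apobr on the opposite strand, and the strand setting of the counting is not given in the sources used here. Apobr had 219 and 237 CPM in WT and 132 and 102 CPM in KO of experiment 2 (log2 fold change -0.97, SE 0.16, adjusted p = 0.0221 in edgeR's test). In experiment 1, where Il27 had -0.00, Apobr had 151 and 126 CPM in WT and 169 and 173 CPM in KO (0.29, SE 0.09, adjusted p = 0.0264).

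Ebi3, which encodes the partner chain and whose NF-κB match is printed above, lies on chromosome 17 (55952640 to 55957022, plus strand, 5 exons). It had 116 and 109 CPM in WT and 28.4 and 29.5 CPM in KO of experiment 1. The log2 fold change was -1.97 (SE 0.06), a 3.92-fold decrease, with an adjusted p of 6.78e-07 in edgeR's test. In experiment 2 it had 114 and 92.5 CPM in WT and 65.7 and 86.3 CPM in KO, and both KO libraries lay below both WT libraries. This gave a log2 fold change of -0.44 (SE 0.18, adjusted p = 0.156 in edgeR's test). Ebi3 was thus at a like level in the WT groups of both experiments and lowest in KO of experiment 1, and the interaction was 1.52 (SE 0.21, adjusted p = 0.00156 in edgeR's test). An antisense gene model, Gm16712, shares 270 exon bases with it but had at most 20 counts in a library.
Compared per length, as CPM divided by exon length in kilobases (RPKM), Ebi3 exceeded Il27 in every library. The ratio of Ebi3 to Il27 was 101 and 84.6 in WT and 22.1 and 25.5 in KO of experiment 1. It was 4.90 and 6.37 in WT and 64.4 and 103 in KO of experiment 2. The libraries in which the levels of the chains were closest were therefore WT of experiment 2.

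**Figure D2:**
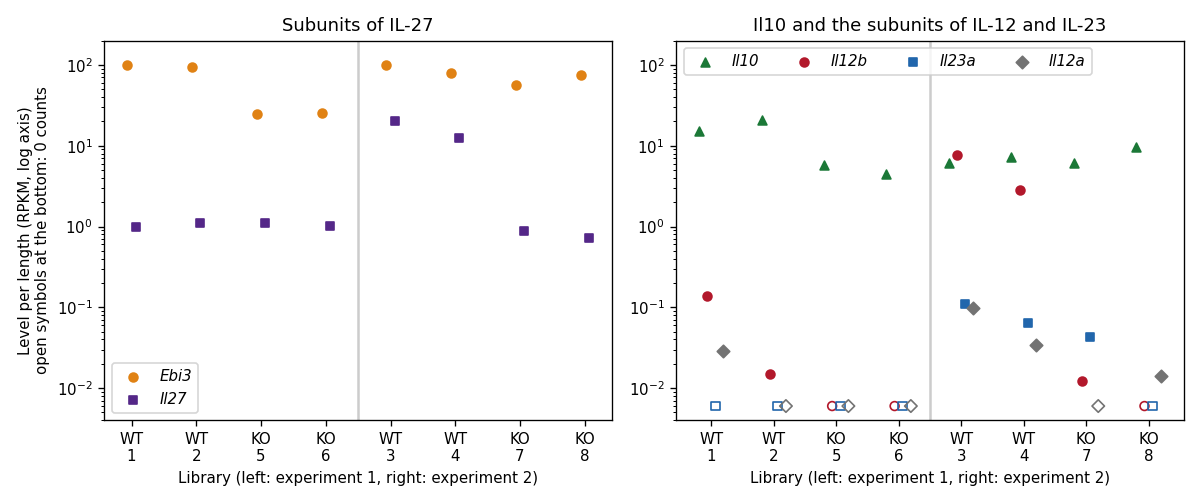
Level per length in RPKM (log axis) in each library, with experiment 1 left and experiment 2 right of the grey line; open symbols at the bottom stand for 0 counts. The left panel shows Ebi3 and Il27, whose ratio is 4.90 and 6.37 in WT libraries 3 and 4 and at least 22.1 elsewhere, and the right panel shows Il10 above Il12b in every library but WT library 3.

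Il12b, which encodes the p40 chain, lies on chromosome 11 (44400063 to 44414033, plus strand, 8 exons). WT libraries 3 and 4 of experiment 2 had 558 and 194 counts, or 15.3 and 5.58 CPM. WT libraries 1 and 2 of experiment 1 had 11 and 1 counts, and the 4 KO libraries had 0, 0, 1 and 0 counts. A count of 0 allows up to 3 counts in a library. With KO set to that floor, 0.0726 CPM, Il12b was at least 144-fold lower in KO than in WT of experiment 2, or at least 76.9-fold lower without WT library 3. No bound is given for experiment 1, since WT library 2, with 1 count, lay under the floor and WT library 1 alone would set it. Only 3 libraries reached 10 counts, so Il12b did not pass the filter on low counts set over both experiments. Without a filter, adjusted p was 0.0227 in experiment 2 in edgeR's test. It was 0.00403 in experiment 1 in edgeR's test, a value that rests on the 11 counts of WT library 1.

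The α chains that p40 needs were barely detected. Il12a and Il23a stayed below 10 counts in every library and did not pass the filter. Il12a (p35, chromosome 3, 68690644 to 68698547) had 2 and 0 counts in WT and 0 and 0 in KO of experiment 1, and 6 and 2 in WT and 0 and 1 in KO of experiment 2. Il23a (p19, chromosome 10, 128296139 to 128298752) had no count in experiment 1, and 9 and 5 in WT and 4 and 0 in KO of experiment 2. A difference between the genotypes was not detectable for either gene at this depth. Without a filter, adjusted p in edgeR's test was 0.504 for Il12a in experiment 1, 0.241 for Il12a in experiment 2 and 0.286 for Il23a in experiment 2. Per length, Il12b exceeded Il23a 70.8-fold and 44.3-fold in WT libraries 3 and 4, and exceeded Il12a 80.4-fold in WT library 3. Set against Il10 in the same way, Il12b was of the same order in these libraries, with a ratio of Il10 to Il12b of 0.794 in WT library 3 and 2.59 in WT library 4. The ratio was 112 in WT library 1, and in the other 5 libraries Il12b had too few counts for a ratio.

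The receptor genes of the IL-12 family were expressed at low levels. Il27ra (chromosome 8, 84030294 to 84042589, minus strand, 13 exons) had 33 and 19 counts in WT and 35 and 46 counts in KO of experiment 1, and its log2 fold change was 0.59 (SE 0.31, adjusted p = 0.137 in edgeR's test). In experiment 2 it had 77 and 123 counts in WT and 30 and 18 counts in KO. Its log2 fold change there was -2.27 (SE 0.43, adjusted p = 0.0287 in edgeR's test), and the interaction was -2.88 (SE 0.55, adjusted p = 0.00572 in edgeR's test). The call of experiment 2 was lost without WT library 4, KO library 7 or KO library 8.
Il12rb1 (chromosome 8, 70808449 to 70821424, plus strand, 16 exons) had 12 and 17 counts in WT and 49 and 66 counts in KO of experiment 1, and the change was 1.91 on the log2 scale (SE 0.33, adjusted p = 0.00169 in edgeR's test). The groups did not overlap, but a fit of the 4 groups over 8 libraries gave an adjusted p of 0.0928 in edgeR's test. In experiment 2 its replicates disagreed, with 74 and 13 counts in WT and 34 and 11 counts in KO. The log2 fold change was -1.14 with a SE of 0.93 (adjusted p = 0.440 in edgeR's test), and its sign depended on WT library 3, without which it was 0.54. The interaction missed the threshold (adjusted p = 0.0614 in edgeR's test).

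**Figure D3:**
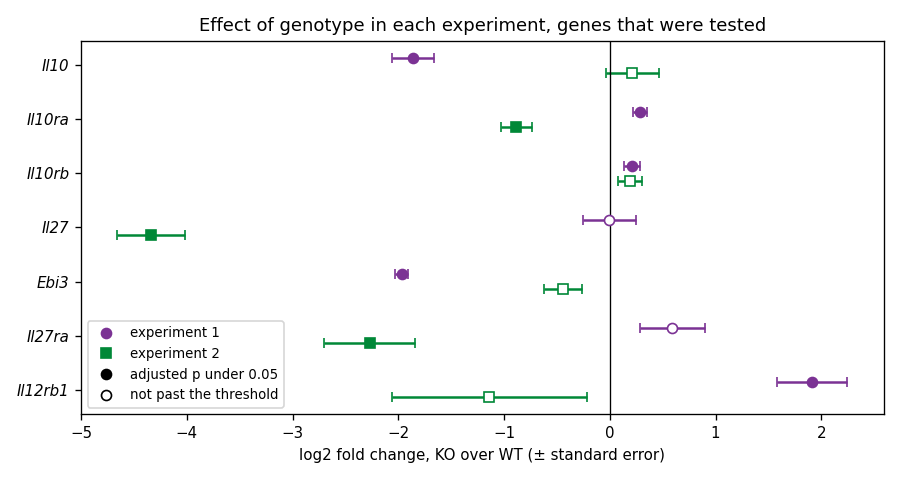
Log2 fold change of KO over WT (horizontal axis, bars: standard error) for the 7 genes tested, in experiment 1 (circles) and experiment 2 (squares); filled symbols have an adjusted p under 0.05. Il10 and Ebi3 lie near -2 in experiment 1, Il27 at -4.34 in experiment 2, and no gene is filled on the same side of 0 in both.

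With both experiments in 1 fit and the experiment as an additive term, none of the 7 genes passed an adjusted p of 0.05 in edgeR's test, where 7.12% of all genes did, 3.41% lower and 3.72% higher. At an unadjusted p under 0.05 there were 2, Ebi3 (log2 fold change -1.20, adjusted p = 0.0697) and Il10rb (0.21). DESeq2 called 3 of the 7, namely Ebi3 (adjusted p = 0.00247), Il27 (adjusted p = 0.0256) and Il10rb (adjusted p = 0.0403), and limma-voom none.

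Ranked by mean level per length over the 8 libraries, Ebi3 was highest with 69.5 RPKM, followed by Il10ra with 50.3 and Il10rb with 46.4 RPKM. The order was not the same in each group. Ebi3, with 25.1 RPKM, lay below Il10ra (53.8) and Il10rb (52.3) in KO of experiment 1. Il10ra lay below Il10rb in WT of experiment 1 (43.7 and 44.9) and in KO of experiment 2 (36.4 and 47.0). Il27 (16.4) lay above Il10 (6.76) in WT of experiment 2. Il12b lay above Il27ra and Il12rb1 in WT of experiment 2 alone, with 5.31 RPKM there and at most 0.0762 in the other groups. Il12rb1 (0.362) lay above Il27ra (0.300) in KO of experiment 1. Among 11780 tested genes with a gene model, 94.9% had a lower mean than Ebi3 and 92.2% a lower mean than Il10rb. Il10 had 9.48 RPKM, Il27 4.82, Il12b 1.35, Il27ra 0.368 and Il12rb1 0.221 RPKM, and Il23a and Il12a had 0.0271 and 0.0217 RPKM. The IL-10 receptor chains varied least between libraries, with the highest CPM 2.10-fold above the lowest for Il10ra and 1.33-fold for Il10rb, against 27.7-fold for Il27. Over the 8 libraries, the log2 levels of Il27 and Il12b had a Pearson r of 0.97, while Il27 and its partner Ebi3 had 0.37. These coefficients are descriptions over libraries that share their group and experiment.

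The genes most like Il27 over the 8 libraries, by Pearson r of log2 levels among all genes tested, were Cd40 (r = 0.998), Itgb8 (0.995) and Apobec3 (0.994). Cd40, a receptor by which T cells stimulate macrophages, had 155 and 117 CPM in WT of experiment 2 and between 6.60 and 11.5 CPM elsewhere. Those most like Il12b were Mfsd7a, Hivep1 and Lpar1 (0.996, 0.994 and 0.994), and these values too rest mainly on WT libraries 3 and 4. Those most like Ebi3 were Lmo4 and Nfkbiz (0.995 and 0.992), the latter an IκB family cofactor of NF-κB, and the transcript RP24-251F16.4 (0.991). Nfkbiz had 369 and 421 CPM in WT and 52.2 and 43.1 CPM in KO of experiment 1, and between 198 and 388 CPM in experiment 2. Those most like Il10 were RP24-194D17.3, Sbds and Specc1l (0.995, 0.963 and 0.961), with far smaller ranges than Il10 itself. Those most like Il10ra were Plekha4, mt-Nd6 and Mapk14 (0.987, 0.986 and 0.985). The genes most like Il10rb, Il12rb1 and Il27ra had r of at most 0.984.

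Of the remaining ligands and receptors of these families, 4 of 14 were tested, and 3 were higher in KO of experiment 1 and 2 lower in KO of experiment 2. Their median changes were 1.17 and -1.03. The lists of this and the next paragraphs were read against the shares over all genes given above, and no list was tested as a set. Il12rb2, the second chain of the IL-12 receptor, passed in opposite directions, with 0.74 (adjusted p = 0.0274) and -2.63 (adjusted p = 0.00571) in edgeR's test. Il6st, which encodes gp130, the partner of Il27ra, had 104 and 79.3 CPM in WT and 291 and 271 CPM in KO of experiment 1 (adjusted p = 0.000397 in edgeR's test), and a log2 fold change of -0.15 (adjusted p = 0.664 in edgeR's test) in experiment 2. Clcf1, a gp130 cytokine, rose by 2.76 on the log2 scale in KO of experiment 1, and Il20rb, a receptor chain for IL-20 cytokines, fell by 1.77 in KO of experiment 2. Il22, Il24 and Il22ra1 had no count in any library.

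Of 8 genes for the kinases, STATs and SOCS proteins that act below these receptors, 3 were lower and 3 higher in KO of experiment 1, and 5 lower and none higher in experiment 2, with medians of -0.16 and -1.47. Jak2, a kinase of the IL-12 receptor, was lower in both (-0.37 and -1.59 on the log2 scale). Socs3, a feedback inhibitor that IL-10 induces, had -1.90 (adjusted p = 5.96e-05) and -2.99 (adjusted p = 0.0289) in edgeR's test. These were the 2 of the list that passed in the same direction in both experiments. Tyk2, the kinase used by IL-10 and IL-12 receptors, passed in opposite directions, with 0.68 in experiment 1 and -1.36 in experiment 2. Stat3, the factor that IL-10 activates, was higher in KO of experiment 1 (0.47) and had 0.42 in experiment 2, where it did not pass.

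Among 14 transcription factor genes known to act on Il10 or Il12b, 7 were lower and 3 higher in KO of either experiment, with medians of -0.17 and -0.53. The NF-κB subunit genes Rel and Nfkb1 were lower in both, Rel with -0.43 and -1.14 and Nfkb1 with -0.30 and -1.30. Rel encodes c-Rel, which Il12b transcription is known to need. Prdm1 (-0.78 and -3.07) and Spi1, which encodes the myeloid factor PU.1 (-0.60 and -0.55), were also lower in both, and Irf8 was higher in both (0.31 and 0.75). Irf1, an interferon-induced activator, passed in opposite directions, with 1.05 in experiment 1 and -3.08 in experiment 2. Nfil3 (-0.86 and 1.55) and Atf3, a repressor of inflammatory genes (-1.45 and 0.89), did so the other way round. Maf, an activator of Il10, had 0.15 and 0.63, with adjusted p of 0.121 and 0.206 in edgeR's test.
Among 9 genes that IL-10 is known to induce in macrophages, 5 were lower and 3 higher in KO of experiment 1, and 2 lower and 2 higher in experiment 2, with medians of -0.57 and 0.00. Besides Socs3, Zfp36, which encodes an mRNA decay factor for cytokine transcripts, was lower in both experiments (-0.57 and -0.92). Socs3, Bcl3 and Nfil3 each stand in 2 of the lists. Bcl3, an IκB family protein, had -1.09 in experiment 1 and 0.00 (adjusted p = 0.996 in edgeR's test) in experiment 2, and Il4ra had 0.21 (adjusted p = 0.392) and 1.86 (adjusted p = 0.00501).

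**Figure D4:**
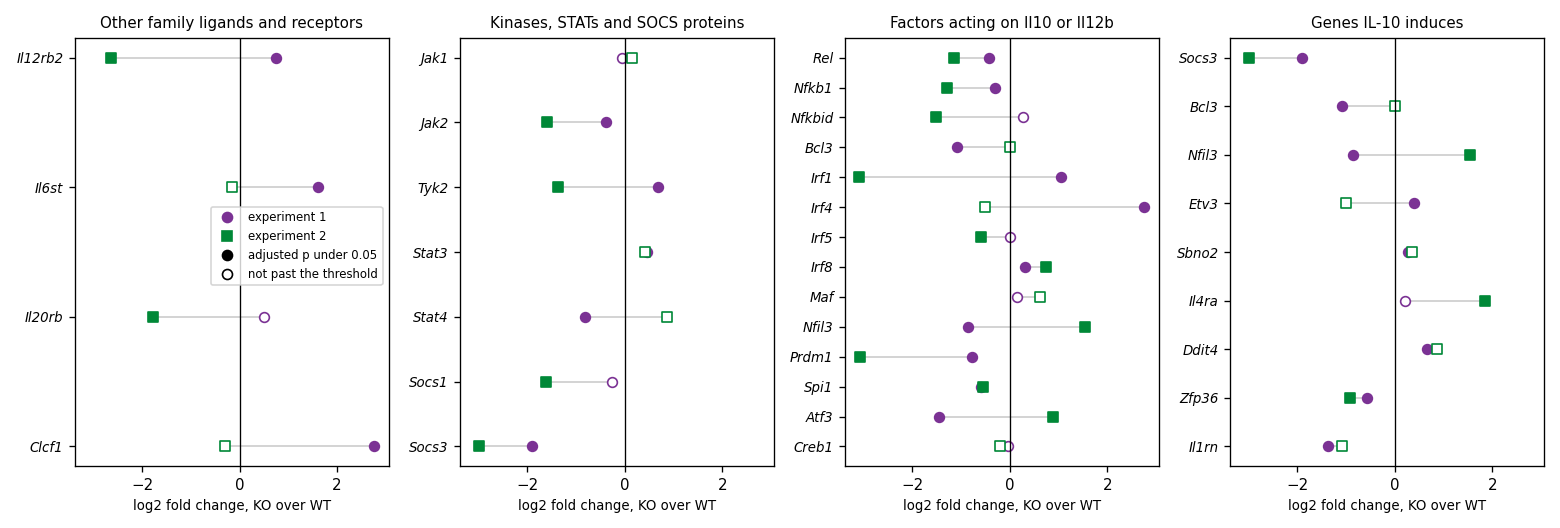
Log2 fold change of KO over WT (horizontal axes) in experiment 1 (circles) and experiment 2 (squares) for tested genes of 4 lists of the IL-10 and IL-12 pathways, of which 1 is not shown; filled symbols have an adjusted p under 0.05 and grey lines join the values of a gene. Socs3 lies left of 0 in both experiments, with -1.90 and -2.99, and Irf1 on opposite sides, with 1.05 and -3.08.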

How the data were processed

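Bulk RNA-seq libraries, made with a stranded mRNA kit, came from BMDMs of WT and KO mice, 4 libraries each. Per the labels, the authors aligned reads with STAR 2.7.0f to GRCm38, counted them per gene with featureCounts of Subread 1.6.4 and used DESeq2 1.22.1. The authors deposited raw counts, which entered all tests, and normalized counts, a signal equal to the counts of a library divided by a size factor between 0.891 and 1.09, used to check the unit only. The annotation and strand setting of the counting are not given in the sources used here.

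Genes passing filterByExpr by genotype over the 8 libraries (14418 genes, 99.9% of counts) were tested with edgeR 4.0.16 in R 4.3.3 (TMM, robust quasi-likelihood F test, Benjamini-Hochberg adjustment, threshold 0.05). Each experiment was fitted alone, with 2 residual degrees of freedom. The interaction used all 8 libraries. SE was taken as |log2 fold change|/√F. The floor of 3 counts covers counting error only, while the SE also includes the spread between libraries. The reads carried no molecular identifiers. CPM used TMM sizes over 8 libraries. Lengths and coordinates are from GENCODE M21 on GRCm38. Likeness used log2 of CPM plus 0.1 for genes with at least 100 counts in all. All 10 genes, Mkl1 and, in each pathway list, genes called in both experiments or with the 2 smallest p in either were named, except that 1 such gene is not reported here. Maf, Stat3, Apobr, Adgre1, Csf1r, Itgax, Flt3, Cd3e, Col1a1, Col1a2, Col3a1, Pdgfra, Lum, Thy1, Il22, Il24 and Il22ra1 were added after their values were seen. The genes and lists were chosen with earlier results of these data known. DESeq2 1.42.0, limma-voom (limma 3.58.1), upper-quartile scaling, other filters, 1 fit of 4 groups and fits without a library were alternatives. The fits were tested on simulated data. Figures were drawn with matplotlib 3.10.9.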

Additional observations from a re-analysis of the deposited data

Results flagged for a closer look

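For 5 of the 7 tested genes edgeR's interaction test found unequal genotype effects in experiments 1 and 2, as it did for 41.6% of all genes tested. The log2 fold change of experiment 2 minus that of experiment 1 was -4.35 for Il27, 1.52 for Ebi3, -1.18 for Il10ra, 2.06 for Il10 and -2.88 for Il27ra. The sign was the same in all 14 alternative fits of each, and all 14 were past the threshold, with the largest adjusted p being 0.0278 for Il27ra. Beside these values stand the fibroblast markers, which summed to between 163 and 216 CPM in KO of experiment 1, and Itgax. Itgax had 30.9 and 46.7 CPM in WT of experiment 2 and 19.2 and 29.3 CPM in KO of experiment 1, against 0.935 to 3.25 CPM elsewhere. Their part in the differences was not tested.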

How the results depend on the processing

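Il10 and Ebi3 in experiment 1 passed in 11 of 11 alternatives, and the interactions of Il10, Il10ra, Il27, Il27ra and Ebi3 in 14 of 14. Fitting 4 groups over 8 libraries left 2 of the 5 calls of experiment 1 and raised the calls over all genes in experiment 2 to 4899, from 2279. Leaving out 1 library gave 0 to 2 calls among the 7 genes in experiment 2 (0 without KO library 8, where 4 had an unadjusted p under 0.05 in edgeR) and 232 to 1388 calls over all genes, with 232 without KO library 8. In the additive fit, which had no call among the 7 and 1027 over all genes, DESeq2 gave 3 and 2492, no filter gave 1 and a filter by 4 groups, added after the data were seen, gave 1 (both Il12b, which passes that filter through the group where it is high and gets no support from it), and dropping the experiment term gave 4 over all genes. Leaving out 1 library there gave 0 to 1 and 243 to 1100, and 3935 to 6508 for the interaction over all genes. Upper-quartile scaling moved the share of higher calls in the additive fit from 52.2% to 67.3%. The sign turned for some effects that had not passed the threshold. Il27 in experiment 1 had 0.0963 with upper-quartile scaling, 0.0095 with 10 counts in every library, 0.0080 in the fit of 4 groups and -0.0916 to 0.0865 without 1 library. Without 1 library, Il10 in experiment 2 had -0.14 to 0.50, Il12rb1 had -2.18 to 0.54 in experiment 2 and -0.17 to 1.39 in the additive fit, and the interaction of Il10rb had -0.0988 to 0.0681. The cause was not tested. With 1 library left in an arm, it was assumed to vary like the others. No paired analysis was possible because the replicate numbers run from 1 to 8 and no groups share one. Depth limited Il12a and Il23a, the filter by genotype over both experiments kept Il12b out, and 2 libraries a group limited all tests.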
